A study of Rattus norvegicus with 125 samples.

Results

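The genes of prostaglandin synthesis, breakdown and signalling were followed along the rat nephron: the cyclooxygenases Ptgs1 and Ptgs2, the synthases Ptges and Ptgds, the degrading enzyme Hpgd, and the prostaglandin E2 receptor genes Ptger1, Ptger2, Ptger3 and Ptger4. These 9 were chosen by symbol from the 17144 gene symbols in the deposited RPKM tables, and every symbol was present as 1 RefSeq transcript. RPKM is a read count scaled to transcript length and to the total reads of the library. Tubules were dissected by hand after collagenase digestion from male adult Sprague-Dawley rats of 200 to 250 g, and poly(A) RNA of each lysate was sequenced by a protocol developed for single cells. The tubule libraries cover 14 segments: the proximal S1, S2 and S3 (7 libraries each), the short descending limb (SDL, 10), the long descending limb in outer medulla (LDLOM, 9) and inner medulla (LDLIM, 4), the thin ascending limb (tAL, 7), the medullary and cortical thick ascending limbs (mTAL and cTAL, 7 each), the distal convoluted tubule (DCT, 8), the connecting tubule (CNT, 6), and the cortical, outer medullary and inner medullary collecting ducts (CCD, 11; OMCD, 7; IMCD, 8). A further 5 libraries are of glomeruli, whose labels carry the rearing text of the water-load experiment, so that their rats are not clear. In that experiment 8 rats aged 5 weeks all received the vasopressin V2 agonist ddAVP by minipump at 5 ng per hour. They ate gelled food with 50 mL (water load, 4 rats) or 25 mL (control, 4 rats) of water a day for 4 days before CCDs were dissected. The labels number the segment libraries without saying whether they came from different rats, so p-values measure the spread between libraries. Where a library holds other cells, fewer cells of a type and less RNA per cell cannot be told apart.

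Prostaglandins are made from arachidonic acid, which phospholipases free from membranes. A cyclooxygenase, constitutive Ptgs1 or inducible Ptgs2, turns it into prostaglandin H2, from which Ptges makes prostaglandin E2 and Ptgds makes prostaglandin D2, and Hpgd inactivates prostaglandin E2 by oxidizing it. Prostaglandin E2 is known in the kidney for lowering salt and water reabsorption and for adjusting blood flow and renin release, through the receptors EP1 (Ptger1, calcium), EP2 and EP4 (Ptger2 and Ptger4, cyclic AMP) and EP3 (Ptger3, mostly an inhibitor of cyclic AMP).

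The promoters of the 3 enzyme genes on which most of what follows turns are shown here, because their levels peak in different segments. Each is the 250 bases before the RefSeq start site in GRCr8, on the gene's strand, with matches to 6 searched motifs in capitals.
Ptgs1, chr3:39981169-39981418, plus strand: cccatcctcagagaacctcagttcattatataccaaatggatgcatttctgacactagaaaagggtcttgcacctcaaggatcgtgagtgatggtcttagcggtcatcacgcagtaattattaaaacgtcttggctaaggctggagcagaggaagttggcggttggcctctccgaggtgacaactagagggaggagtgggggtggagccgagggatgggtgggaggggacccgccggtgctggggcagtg
Ptges, chr3:34586988-34587237, minus strand: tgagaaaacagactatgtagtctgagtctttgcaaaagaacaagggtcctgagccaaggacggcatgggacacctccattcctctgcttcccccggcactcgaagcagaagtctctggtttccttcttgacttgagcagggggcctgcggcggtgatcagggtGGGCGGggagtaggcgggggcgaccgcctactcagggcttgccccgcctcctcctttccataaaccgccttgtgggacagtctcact
Ptgs2, chr13:64713813-64714062, plus strand: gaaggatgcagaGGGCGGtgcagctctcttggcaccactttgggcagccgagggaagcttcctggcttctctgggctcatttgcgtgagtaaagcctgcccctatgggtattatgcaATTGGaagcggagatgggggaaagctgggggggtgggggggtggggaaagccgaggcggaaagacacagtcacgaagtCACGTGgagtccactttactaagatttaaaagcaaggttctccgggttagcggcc
Both strands were searched for the TATA box TATAAA, the CCAAT box CCAAT, the GC box GGGCGG, the E-box CACGTG, the cyclic AMP response element core TGACG and the GATA motif AGATAA. Ptgs1 held none of the 6. Ptges held a GC box, which 30.5% of the 33469 rat promoters in the table held. Ptgs2 held a GC box, a CCAAT box on the opposite strand (34.0% of promoters) and an E-box 55 to 50 bases before its start (5.59% of promoters). TATAAA was found in no member's window and in 12.9% of all promoters, AGATAA likewise in none against 10.3%, and TGACG was found in Hpgd alone, against 18.2%.

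The tubule libraries ranged from 1438 to 8574 genes at 1 RPKM or more, and their sequencing depth, judged from the smallest steps between values, spanned 0.365 to 5.20 relative to the median in the 104 libraries where it could be read. The smallest step was 0.00632 RPKM at the median for Ptgs2, so a level of 1 RPKM lies far above 1 read. Libraries tAL 1 and tAL 2 go against their label: the summed level of 8 endothelial marker genes was 8903 and 5481 RPKM there, against 3.92 to 267 in the other 5 tAL libraries, and the sum of 3 thin ascending limb markers was 1.63 and 4.93, against 139 to 3293. LDLOM 1 held 2331 RPKM of 6 proximal tubule markers and 551 of 5 intercalated cell markers. DCT 2 and DCT 6 held the most of the collecting duct water channel gene Aqp2 among DCT libraries, 632 RPKM in DCT 6, where the 6 others held at most 60.6. Results that rest on these libraries are given without them too. The authors deposited a second table of the same libraries without PA-seq (sequencing of polyadenylation sites). Ptgs1, Hpgd and Ptger2 have the same values in both, Ptges nearly so and Ptgds 1.49 times as much in the second, while Ptgs2, Ptger1, Ptger3 and Ptger4 are lower there in most libraries, so values below are from the table with PA-seq unless stated.

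**Figure D1:**
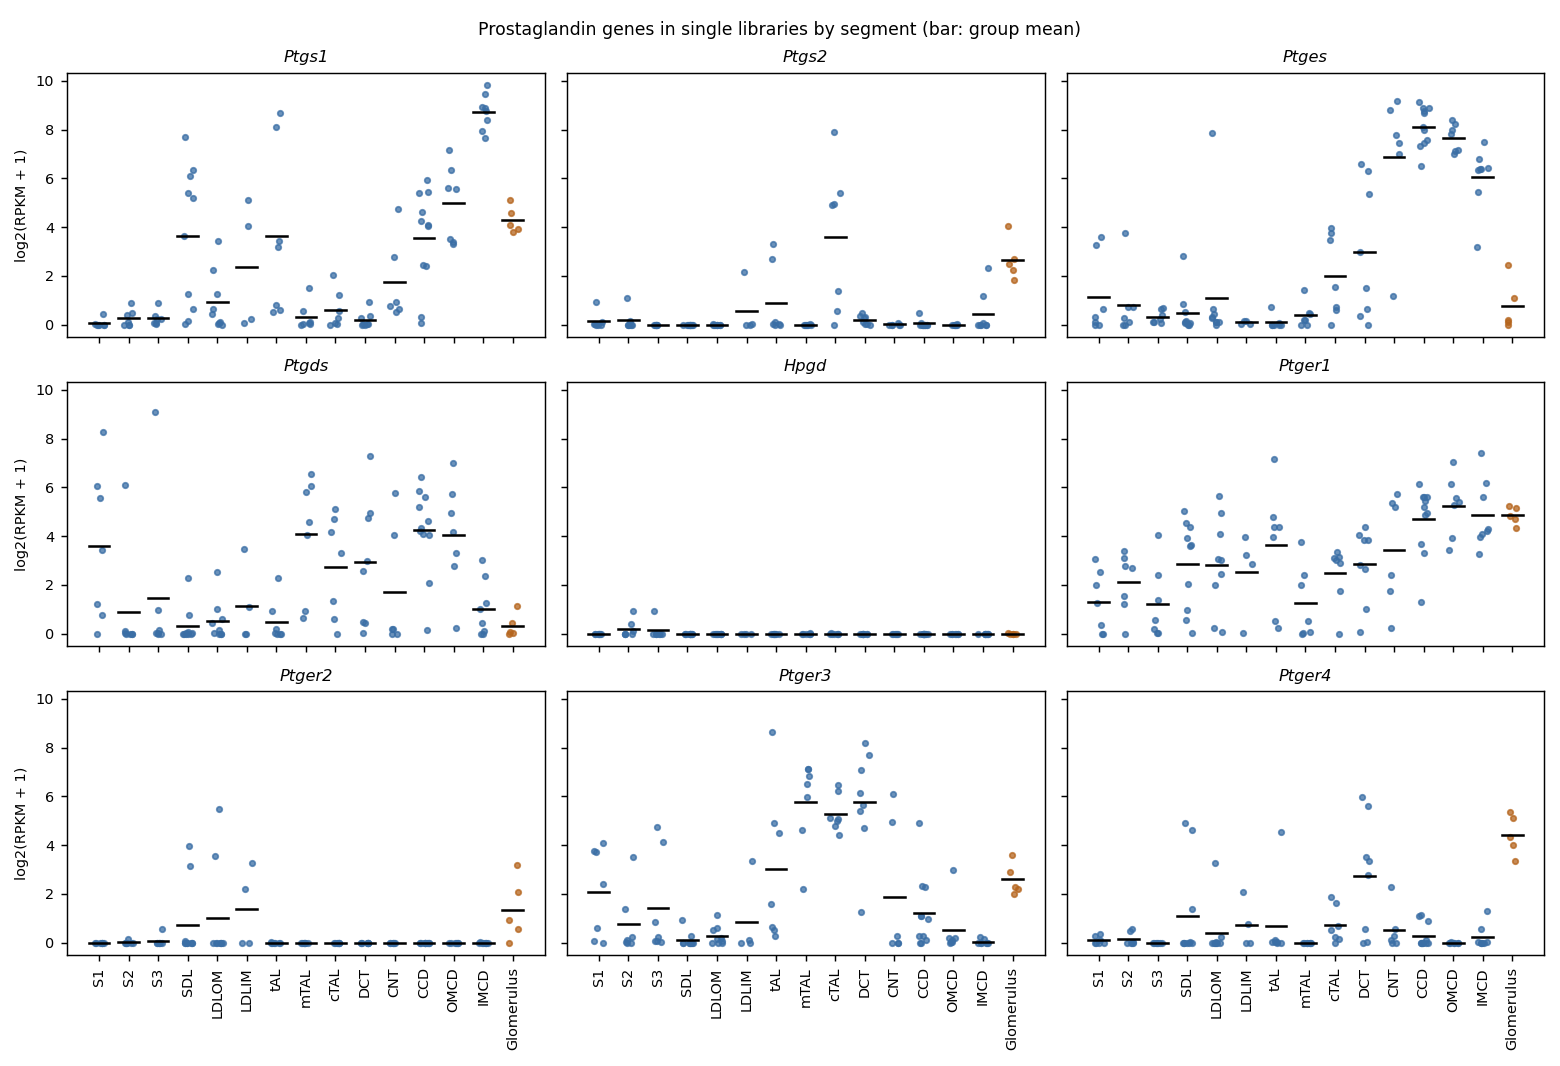
Level of each of the 9 genes in every library, as log2(RPKM + 1), by segment along the nephron and in glomeruli; points are libraries and bars group means. Ptgs1 peaked in IMCD, Ptges from CNT to IMCD, Ptgs2 in cTAL and Ptger3 from mTAL to DCT, while Hpgd stayed under 1 RPKM in every library.

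Of the 9 genes, 8 reached 1 RPKM in at least 4 tubule libraries and were tested, and Hpgd did not. Levels differed over the 14 segments for 7 of the 8 (limma moderated F-test on log2(RPKM + 1), adjusted p under 0.05), where 41.5% of the 11078 genes tested did so; Ptger2 had an adjusted p of 0.0516. With a minimum difference of 1 on the log2 scale, 2 of the 8 stood above each of the 13 other segments in 1 segment, against 1.95% of all genes. These were Ptgs1 in IMCD and Ptgs2 in cTAL. Among 5 regions, each set against the mean of all other segments, 17 of 40 tests were called (7 higher, 10 lower), against 11.9% over all genes. A high level in 1 region enters the rest for every other region, so the tests of a gene are not independent. Between 14 pairs of neighbouring segments 13 of 112 tests were called, against 2.92%.

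Ptgs1, the constitutive cyclooxygenase, was highest in the inner medullary collecting duct. In the 8 IMCD libraries its level was 201 at the lowest, 450 at the median and 903 RPKM at the highest, with a mean of 472 ± 236 (SD, n = 8). In OMCD it ran from 8.79 through 46.6 to 143 RPKM, so no OMCD library reached the lowest IMCD library, a separation that 0.821% of all genes showed in either direction. CCD libraries spanned 0.0335 to 59.5 RPKM (median 16.1) and CNT libraries 0.432 to 25.4 (median 0.812). The rise from OMCD to IMCD was 3.74 ± 0.90 (SE) on the log2 scale (limma, adjusted p = 0.00223), when 6.48% of genes rose at that step and the median gene moved by 0.55. With a pseudocount of 0.1 this call and the selectivity for IMCD ended (3.81, adjusted p = 0.0564). The steps from CNT to CCD (1.81 ± 0.88, adjusted p = 0.994) and CCD to OMCD (1.44 ± 0.84, adjusted p = 0.341) did not pass. Ptgs1 was lower in the proximal tubule than in the rest by 2.59 ± 0.43 on the log2 scale (limma, adjusted p = 3.8e-07; 15.4% of genes were lower there), and lower in the thick limb by 2.07 ± 0.50 (adjusted p = 0.00390; 2.34% lower). The CNT and collecting duct together exceeded the rest by 3.52 ± 0.38 (adjusted p = 1.7e-13; 9.42% of genes were higher there). In the DCT it was lower by 2.19 ± 0.64 (adjusted p = 0.0217; 0.424% of genes were lower), a call that ended without DCT 2, DCT 3 or DCT 7 (adjusted p = 0.0501, 0.0520 and 0.0550) and without DCT 2 and 6 together (0.0776). All 7 S1 libraries lay at or below 0.333 RPKM.

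Outside the collecting duct Ptgs1 was uneven. In LDLIM, also of the inner medulla, it ran from 0.0539 through 7.92 to 33.9 RPKM. In SDL it ran from 0.0111 through 23.4 to 205 RPKM, and it rose from S3 to SDL by 3.38 ± 0.85 on the log2 scale (limma, adjusted p = 0.00365; 3.57% of genes rose) and fell from SDL to mTAL by 3.32 ± 0.85 (adjusted p = 0.00937; 3.11% fell). Both calls ended when each pair of segments was fitted alone (adjusted p = 0.0660 and 0.130). The tAL mean of 101 ± 170 RPKM came from tAL 1 (410) and tAL 2 (276), the libraries rich in endothelial markers; the other 5 lay between 0.418 and 9.78. With them the fall from tAL to mTAL was 3.30 ± 0.93 (adjusted p = 0.0170; 5.31% of genes fell); without both it was 1.39 on the log2 scale and not called (adjusted p = 0.470). Without either tAL 1 or tAL 2 alone the call ended too, at adjusted p = 0.111 and 0.0803. The endothelial sums in SDL reached 909 RPKM at a median of 98.9, and those in IMCD reached only 58.4 at a median of 4.95; their part in the SDL levels was not tested.

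Ptges, the microsomal synthase that makes prostaglandin E2, was a gene of the whole CNT and collecting duct. Its level was 317 ± 156 RPKM in CCD (90.9 to 556, n = 11), 255 ± 211 in CNT (1.26 to 570, n = 6), 216 ± 83.6 in OMCD (125 to 336, n = 7) and 83.8 ± 49.9 in IMCD (7.98 to 180, n = 8). Every OMCD and CCD library lay above 90 RPKM, and CNT 4 alone among the CNT libraries lay under 126. The 4 segments together exceeded the rest by 6.25 ± 0.36 on the log2 scale (limma, adjusted p = 6.1e-31; 9.42% of genes were higher there), and none of the alternatives run ended that call. These 4 did not differ from one another past the threshold: CNT to CCD gave 1.23 ± 0.83 (adjusted p = 0.994), CCD to OMCD -0.45 ± 0.79 (0.826) and OMCD to IMCD -1.61 ± 0.85 (0.262).

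The step into this stretch was sharp. From DCT to CNT Ptges rose by 3.92 ± 0.89 on the log2 scale (limma, adjusted p = 0.00239; 0.885% of genes rose). DCT libraries ran from 0 through 4.40 to 94.0 RPKM, and the highest were DCT 6 and DCT 2 (94.0 and 78.9), the libraries with the most Aqp2, followed by DCT 3 (40.1). Without DCT 2 and 6 the rise was 5.08 (adjusted p = 2.8e-05). Set against all other segments, the CNT and collecting duct among them, Ptges was lower in 3 regions. These were the proximal tubule by 2.51 ± 0.40 (limma, adjusted p = 2.0e-07), the thin limbs by 3.19 ± 0.37 (adjusted p = 1.0e-11) and the thick limb by 1.77 ± 0.47 (adjusted p = 0.0116). Of all genes 15.4%, 8.02% and 2.34% were lower there. The cTAL mean of 2.00 on the log2 scale still lay above the mean of every proximal and thin limb segment. The thick limb call ended with a pseudocount of 0.1 (adjusted p = 0.114). In LDLOM the mean of 26.0 ± 77.3 RPKM came from LDLOM 1 at 232; the other 8 libraries lay at or below 0.565. Without LDLOM 1 the thin limbs were lower by 3.41 on the log2 scale (adjusted p = 1.5e-14).

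**Figure D2:**
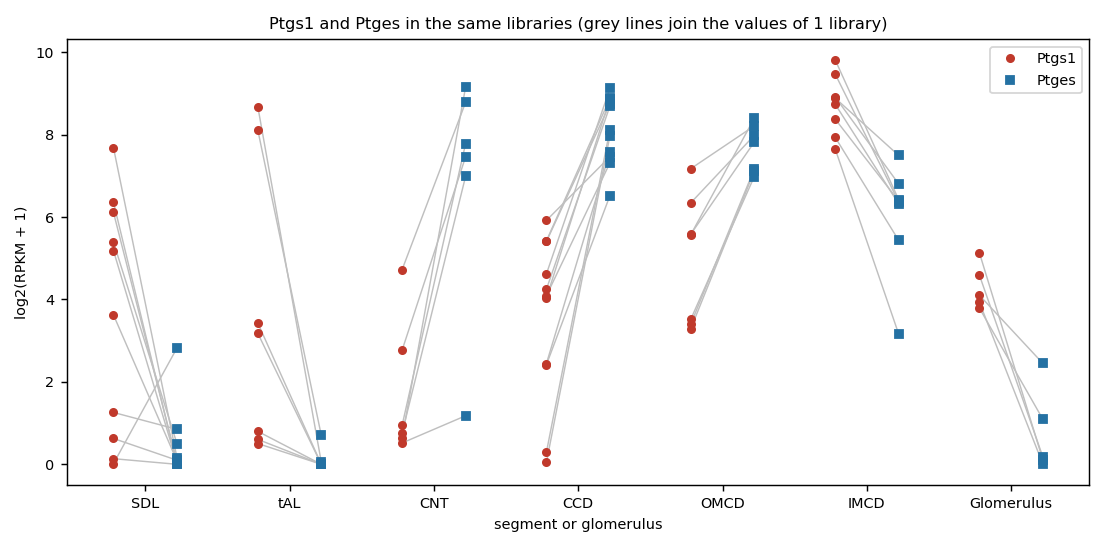
Ptgs1 (red circles) and Ptges (blue squares) in the same libraries, as log2(RPKM + 1), in the segments where either was high and in glomeruli; grey lines join the 2 values of 1 library. The lines slope up toward Ptges in all CNT, CCD and OMCD libraries and down in all 8 IMCD libraries.

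The order of the transcripts Ptgs1 and Ptges by RPKM changed along the duct. Ptges lay above Ptgs1 in all 6 CNT, all 11 CCD and all 7 OMCD libraries, and Ptgs1 lay above Ptges in all 8 IMCD libraries, as a count on RPKM within each library. The difference of Ptgs1 minus Ptges, on the log2(RPKM + 1) scale, averaged -5.17 ± 2.72 in CNT, -4.58 ± 1.90 in CCD, -2.68 ± 1.09 in OMCD and 2.67 ± 0.97 in IMCD (SD). Its range was -3.82 to -1.04 in OMCD and 1.39 to 4.49 in IMCD. Ptgs1 alone already separated these libraries, and no share of other gene pairs was computed. Ptgs1 was also the higher of the pair in 9 of 10 SDL, all 7 tAL and all 5 glomerulus libraries, where Ptges was near 0 in most. The pattern was noticed in the data and has no test of its own.

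Ptgs2, the inducible cyclooxygenase, known in the cortical thick limb from the macula densa at the limb's end, was uneven even where it was highest. In cTAL it ran from 0 through 28.6 to 241 RPKM: cTAL 7 had 241, cTAL 2 40.8, cTAL 4 30.0 and cTAL 1 28.6, and the other 3 had 1.62, 0.484 and 0. In mTAL it was listed at 0 in 6 of 7 libraries and at 0.00633 in the last. The neighbour below, DCT, stayed at or under 0.382 RPKM in all 8 libraries. From mTAL to cTAL it rose by 3.59 ± 0.48 on the log2 scale (limma, adjusted p = 2.9e-08; 0.993% of genes rose) and from cTAL to DCT it fell by 3.39 ± 0.46 (adjusted p = 3.4e-08; 0.379% fell). The macula densa markers listed were Robo2, Nos1 and Pappa2, of which Pappa2 is not reported here. Robo2 was above 0 among cTAL libraries in 7, 1 and 2 (0.648, 0.278 and 0.0921 RPKM), 3 of the 4 libraries with the most Ptgs2. Nos1 lay at or under 0.00168 RPKM in every cTAL library, so Robo2 and Nos1 were both near 0 in cTAL. The part of macula densa cells in the Ptgs2 level was not tested. Robo2 was higher elsewhere, at 8.82 RPKM in CNT 5, 2.64 and 3.06 in IMCD 6 and 8, and 19.1 to 44.8 in glomeruli. The mean of mTAL and cTAL exceeded the rest by 1.59 ± 0.26 (limma, adjusted p = 2.3e-06, with 1.64% of genes higher). As mTAL was near 0, this call came from cTAL. In other tubule segments Ptgs2 reached 1 RPKM in S2 7 (1.16), LDLIM 3 (3.41), tAL 5 (8.80), tAL 1 (5.54), IMCD 5 (3.96) and IMCD 6 (1.25), and it was listed at 0 in all S3 and SDL libraries.

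The Ptgs2 result belongs to 1 of the 2 tables. Without PA-seq the cTAL mean was 0.373 ± 0.950 RPKM with a highest library of 2.53, and Ptgs2 reached 1 RPKM in only 2 tubule libraries, so it did not pass the filter and has no test there. Over the 11 libraries at 1 RPKM or more in the table with PA-seq, the median ratio of the second value to the first was 0.00902. Of the 9440 genes averaging 1 RPKM or more, 6.92% were lower in the second table by more than 4 times. How PA-seq entered the values was not stated in the labels or file headers.

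**Figure D3:**
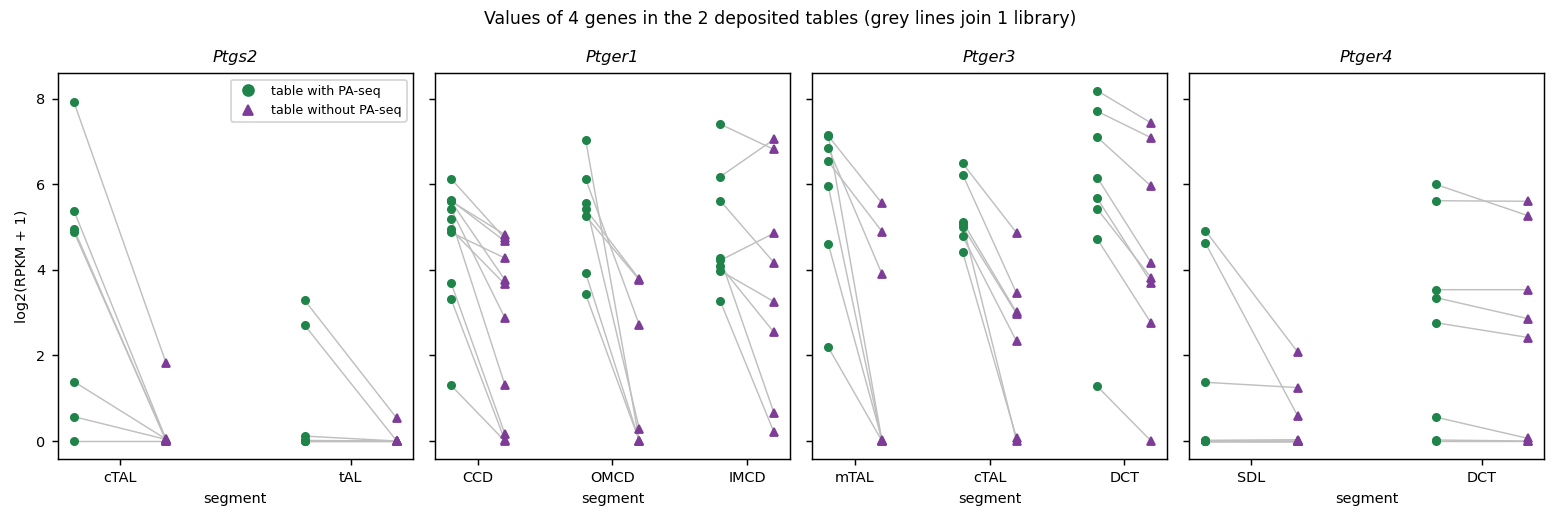
Ptgs2, Ptger1, Ptger3 and Ptger4 in the table with PA-seq (green circles) and without it (purple triangles), as log2(RPKM + 1), in the segments where they were highest; grey lines join the values of 1 library. Ptgs2 in cTAL was at most 2.53 RPKM without PA-seq, and Ptger3 in DCT reached 171 RPKM without PA-seq and 289 with it.

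Ptgds, which makes prostaglandin D2, had no clear home segment. Its means were highest in S3 (78.4 ± 207 RPKM), S1 (61.2 ± 111), mTAL (35.9 ± 35.0), OMCD (34.6 ± 44.7), CCD (29.2 ± 25.5) and DCT (28.0 ± 52.8). The S3 mean came from S3 5 at 547, since the other 6 S3 libraries lay at or below 0.967. On the log2 scale CCD was highest but exceeded only 6 of the 13 others past the threshold. Steadier than these was its low level in the thin limbs, lower than the rest by 2.06 ± 0.46 (limma, adjusted p = 3.1e-04; 8.02% of genes were lower there), with SDL libraries from 0 to 3.86 RPKM against mTAL libraries from 0.558 to 91.8. It rose from SDL to mTAL by 3.77 ± 1.00 (adjusted p = 0.0132), a call that ended without mTAL 1 (adjusted p = 0.0534), and from tAL to mTAL by 3.60 ± 1.09 (adjusted p = 0.0291; 1.03% of genes rose), which ended without tAL 1 (0.0526), without tAL 1 and 2 together (0.0745), when the pair was fitted alone (0.0975) and without each of mTAL 1, 2, 3 and 5 (0.0533 to 0.0779). IMCD stood at 1.76 ± 2.55 RPKM; the drop of 3.00 ± 1.05 from OMCD had an adjusted p of 0.0614.

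Hpgd, the enzyme that inactivates prostaglandin E2, was nearly absent from the values. It was listed above 0 in 9 tubule libraries, and the highest was S3 6 at 0.903 RPKM, followed by S2 5 (0.896) and S2 7 (0.310). The cTAL libraries above 0 each had about 1 of the smallest steps. It was at 0 in every CNT, CCD, OMCD and IMCD library, where Ptges was high.

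Among the receptors, Ptger1 (EP1, the calcium-linked receptor) was spread widely and highest in the collecting duct. Its mean was 49.9 ± 40.8 RPKM in OMCD (9.80 to 131), 45.4 ± 54.0 in IMCD (8.68 to 168) and 33.7 ± 20.2 in CCD (1.46 to 69.0), with tAL at 31.8 ± 49.3, of which tAL 2 alone had 141. The CNT and collecting duct exceeded the rest by 2.26 ± 0.37 on the log2 scale (limma, adjusted p = 6.8e-07), and the proximal tubule lay lower by 1.79 ± 0.42 (adjusted p = 4.8e-04; 15.4% of genes were lower there). No pair of neighbouring segments differed past the threshold.

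In the table without PA-seq, Ptger1 was lower in most libraries, at a median ratio of 0.0369 over the 82 with at least 1 RPKM. It was higher there in 4 of them: SDL 9 (53.5 against 22.2 RPKM), IMCD 2 (131 against 71.1), IMCD 3 (27.9 against 17.6) and DCT 1 (1.91 against 1.03). Its means there were 37.7 ± 52.6 RPKM in IMCD, 11.6 ± 10.9 in CCD, 5.06 ± 6.73 in CNT and 4.44 ± 5.96 in OMCD. The CNT and collecting duct were called there as well, at 1.86 on the log2 scale (limma, adjusted p = 2.6e-06), and so was the lower level in the proximal tubule (adjusted p = 0.00826). The order of the 4 segments differed between the tables, with OMCD first in the one and last in the other. The counting is not stated to use strand, so reads of Ptger1 and of any overlapping gene cannot be told apart.

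Ptger3 (EP3, the receptor that lowers cyclic AMP) marked the thick limb and DCT. Its level in mTAL ran from 3.58 through 91.5 to 140 RPKM, in cTAL from 20.2 through 32.7 to 88.5 and in DCT from 1.42 through 59.9 to 289. All 7 mTAL and 7 cTAL libraries were above 3 RPKM, while SDL stayed under 1 in all 10 libraries and IMCD at or under 0.179 in all 8. The thick limb exceeded the rest by 4.04 ± 0.49 on the log2 scale (limma, adjusted p = 1.9e-10; 1.64% of genes were higher there) and the DCT by 3.98 ± 0.63 (adjusted p = 6.5e-07; 4.22% higher). DCT, mTAL and cTAL, the highest 3, did not differ past the threshold: DCT exceeded mTAL by 0.00170 ± 0.88 and mTAL exceeded cTAL by 0.47 ± 0.91.

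The boundaries of Ptger3 lay at both ends of that stretch. It rose from SDL to mTAL by 5.65 ± 0.84 (limma, adjusted p = 4.6e-07; 0.767% of genes rose) and fell from DCT to CNT by 3.89 ± 0.92 (adjusted p = 0.00392; 1.26% fell). In CNT 2 of 6 libraries carried it (66.9 and 30.0 RPKM) and the rest lay at or under 0.200. In tAL it ranged from 0.225 to 397 RPKM, the highest being tAL 3. The summed level of 4 thick limb markers there was 88.6 RPKM, against 129 in tAL 5, where Ptger3 was 28.7, and 522 to 9866 in mTAL; its part in the tAL 3 level was not tested. The rise from tAL to mTAL (2.77 ± 0.91, adjusted p = 0.0469) was lost without any of tAL 1, 2, 6 or 7 and mTAL 1, 2, 4, 5, 6 or 7 (adjusted p = 0.0516 to 0.147), and without tAL 1 and 2 together it was 1.73 (0.355). Ptger3 was lower in the thin limbs by 1.41 ± 0.38 (adjusted p = 0.00362; 1.15 without tAL 1 and 2, adjusted p = 0.0236) and in the CNT and collecting duct by 1.63 ± 0.37 (adjusted p = 4.2e-04; 3.10% of genes were lower). In the table without PA-seq the DCT call stood at 3.52 on the log2 scale (adjusted p = 5.5e-07). The thick limb call did not (1.31, adjusted p = 0.0666), with 3 of 7 mTAL libraries listed at 0, nor did SDL to mTAL (1.98, adjusted p = 0.124), the thin limbs (0.194) or the CNT and collecting duct (0.144).

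Ptger4 (EP4, a receptor that raises cyclic AMP) was a gene of few libraries. In DCT it ran from 0 through 7.49 to 62.7 RPKM, with DCT 1 at 62.7 and DCT 8 at 47.9. The DCT exceeded the rest by 2.35 ± 0.40 on the log2 scale (limma, adjusted p = 6.5e-06), and the call stood in the table without PA-seq (adjusted p = 1.3e-09). It fell from DCT to CNT by 2.19 ± 0.59 (adjusted p = 0.0206), a call that ended without DCT 1 (1.72 on the log2 scale, adjusted p = 0.122), DCT 8 (1.78, 0.111) or any of CNT 1, 2 or 3 (0.0584 to 0.0606), and when the pair was fitted alone (0.299). Of 10 leukocyte markers 8 were also higher in the DCT than in the rest. Their summed level ran from 81.0 through 746 to 1591 RPKM there, with 375 in DCT 1 and 610 in DCT 8. The sums in cTAL and mTAL had medians of 976 and 954 RPKM. Ptger4 reached 2.70 RPKM at most in cTAL and was listed at 0 in all 7 mTAL libraries. The part of leukocytes in the Ptger4 level was not tested in any segment. In tubules outside the DCT Ptger4 exceeded 20 RPKM in SDL 5 (29.1), SDL 6 (23.7) and tAL 4 (22.2).

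Ptger2 (EP2, the other receptor that raises cyclic AMP) appeared in the descending limbs. It reached 1 RPKM in 6 tubule libraries: LDLOM 2 (43.4), SDL 6 (14.5), LDLOM 7 (10.6), LDLIM 1 (8.69), SDL 3 (7.95) and LDLIM 3 (3.59). It was listed at 0 in every mTAL, cTAL, DCT, CNT, CCD and OMCD library. No neighbouring pair or region was called for it: in the thin limbs its adjusted p was 6.2e-04, but the difference of 0.76 ± 0.18 lay under the minimum of 1 on the log2 scale.

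The genes around the 9 in the pathway varied over the segments about as often as genes at large. The 5 lists of 35 genes were phospholipases, other synthases, other receptors, transport and reduction, and lipoxygenase and leukotriene genes. Of the 35, 34 were in the table, 22 were tested and 10 differed over the 14 segments, against 41.5% of all genes. Of the phospholipases 2 of 5 tested differed: Pla2g6, highest in S2 at 57.7 ± 68.0 RPKM, was higher in the proximal tubule by 2.07 ± 0.44 on the log2 scale (limma, adjusted p = 8.2e-05), and Pla2g10, highest in OMCD at 43.3 RPKM, was called only in the DCT (1.83 ± 0.52, adjusted p = 0.0165). Pla2g12a and Pla2g4b, the other phospholipase genes with the highest means, did not pass the F-test (adjusted p = 0.250 and 0.557). Among synthases 4 of 6 differed. Ptges3, the cytosolic synthase and chaperone partner, lay between 36.0 and 131 RPKM in every segment mean and did not pass (adjusted p = 0.533), and Ptges2, a second membrane-linked synthase, passed without any region called (adjusted p = 0.0282). Fam213b, a prostaglandin F synthase gene, was higher in the proximal tubule by 3.06 ± 0.38 (adjusted p = 2.5e-11) and Cbr1, a carbonyl reductase that can reduce prostaglandin E2, lower there by 1.89 ± 0.38 (adjusted p = 4.0e-05) and higher in the CNT and collecting duct by 1.48 ± 0.34 (adjusted p = 4.8e-04).

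Of the transport and reduction genes 3 of 5 varied. Ptgr1, a prostaglandin reductase, was 502 ± 375 RPKM in IMCD and 144 ± 166 in OMCD, and higher in the CNT and collecting duct by 2.40 ± 0.47 (limma, adjusted p = 3.0e-05). Abcc4, which exports prostaglandins, was higher there by 1.25 ± 0.40 (adjusted p = 0.0185), with 47.2 ± 29.4 RPKM in IMCD. Slco2a1, the transporter that takes prostaglandins up, did the opposite: it was lower there by 1.95 ± 0.40 (adjusted p = 8.3e-05), at or under 0.181 RPKM in all IMCD libraries, and higher in the thin limbs by 3.46 ± 0.42 (adjusted p = 3.6e-11), with 117 ± 144 RPKM in SDL. Ptgr2 did not pass the F-test (adjusted p = 0.277). None of the 3 tested other receptor genes, Ptgfr, Tbxa2r and Ptgdr2, passed the F-test (adjusted p = 0.0588, 0.323 and 0.0859). Of the 3 tested lipoxygenase and leukotriene genes Lta4h passed the F-test (adjusted p = 0.0425) and was higher in the CNT and collecting duct by 1.60 ± 0.48. Alox5ap and Alox12 did not pass (0.0518 and 0.0783).

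By likeness of mean log2 level over the 15 groups, the gene closest to Ptges was Aqp2, the vasopressin-regulated water channel (r = 0.971), then Grem1 (0.967) and Muc20 (0.958). Closest to Ptgs1 were Qsox1 (0.951), Bok (0.907) and Pdia4 (0.902), all highest in IMCD. Like Ptgs2 were Pcp4l1 (0.972) and Oxtr, the oxytocin receptor (0.956), both highest in cTAL at means of 2.25 and 2.55 RPKM. For Ptgds they were Atp5h (0.860), Mdh2 (0.858) and Ndufb5 (0.838), which encode mitochondrial proteins. For Ptger1 they were Nmi (0.936) and Myh10 (0.931), for Ptger3 LOC100361444 (0.913), Fxyd6 (0.885) and Egf (0.885), and for Ptger4 Olr1 (0.967), Apoa1 (0.962) and Mnda (0.961), highest in glomeruli. For Ptger2 they were Rhbdl3 (0.977), Anxa3 (0.962) and Tnfrsf9 (0.945), and for Hpgd, which hardly rose above 0, Mbl1 (0.987), Mir192 (0.983) and RGD1564937 (0.970). These are descriptions over group means of libraries that share segments and depth.

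In glomeruli 6 of the 8 tested genes differed from the mean of the 14 segments, 5 higher and 1 lower, when 38.9% of the 11456 genes tested were called (37.7% higher), and the median gene lay 1.32 higher on the log2 scale. Each glomerulus library had 8818 genes or more. Ptger4 was 14.9, 19.4, 33.4, 9.19 and 39.8 RPKM in the 5 libraries and higher by 3.88 ± 0.51 (limma, adjusted p = 1.7e-10), the call that stood under every alternative run. Ptgs2 was 5.40, 15.6, 4.64, 2.59 and 3.76 RPKM and higher by 2.23 ± 0.41 (adjusted p = 3.5e-06), but by 0.37 (adjusted p = 0.635) after quantile normalization. Ptgs1 was 23.1, 12.8, 34.0, 14.2 and 16.2 RPKM, higher by 2.08 ± 0.77 (adjusted p = 0.0252). Quantile normalization took this to -0.0628 (adjusted p = 0.967), and leaving out glomerulus 1 or 3 ended the call (0.0640 and 0.0808). With the number of detected genes as a covariate it was 1.32 and not called (limma, adjusted p = 0.303).

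The other 3 glomerular calls each ended when single libraries were left out, and under other settings too. With the number of detected genes as a covariate, Ptger1 (0.521, limma adjusted p = 0.7335) and Ptger2 (0.565, 0.372) were not called. Neither was called after quantile normalization (0.454 and 0.1705, adjusted p = 0.707 and 0.719). A pseudocount of 0.1 ended the calls of Ptger1 and Ptges (adjusted p = 0.05307 and 0.05405). Ptger1 was higher by 1.90 ± 0.76 (limma, adjusted p = 0.0366), and without any 1 of the 5 glomerulus libraries the call ended (adjusted p = 0.0562 to 0.0877). Ptger2 was higher by 1.12 ± 0.38 (adjusted p = 0.0134), less than the median gene's shift, with 8.17 RPKM in glomerulus 3, 3.20 in glomerulus 2 and under 1 in the others; without glomerulus 2 or 3 the call ended (0.0723 and 0.196). Ptges was lower by 1.96 ± 0.73 (adjusted p = 0.0252; 1.19% of genes were lower), at 0.128, 1.13, 0.0723, 0 and 4.45 RPKM, and that call ended without glomerulus 1, 3 or 4 (0.0759, 0.0765 and 0.0825). Ptgds (-1.76 ± 0.92, adjusted p = 0.110) and Ptger3 (0.53 ± 0.76, adjusted p = 0.579) did not pass. All 8 endothelial markers, 9 of 10 leukocyte markers and all 6 podocyte markers were higher in glomeruli too. So were Tbxa2r, the thromboxane receptor (3.56 ± 0.47, limma, adjusted p = 2.9e-10), and Slco2a1 (4.15 ± 0.83, adjusted p = 2.3e-05). Thick limb markers summed to 330, 302, 65.8, 1.20 and 47.6 RPKM in the 5 glomerulus libraries, in order. The part of thick limb RNA in the glomerular Ptgs2 level was not tested. Which cell type holds each transcript was not tested either.

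Under water load no member was called in the CCD of ddAVP-infused rats (limma, adjusted p under 0.05), when 13 of 8492 genes were (0.153%). At an unadjusted p under 0.05, Ptgs1 was the only member of the 6 tested, against 7.44% of all genes. Ptgs1 was 10.7, 13.2, 16.1 and 14.4 RPKM in the controls and 20.9, 53.3, 23.8 and 15.9 under water load. Of the water-loaded libraries 3 lay above every control and the last lay just below the highest control, so the groups overlapped. The mean difference was 0.88 ± 0.39 (SE) on the log2 scale (adjusted p = 0.666), and an exact two-sided permutation test of the 8 libraries gave p = 0.0571, where the smallest possible is 0.0286.

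The other members did not pass at the unadjusted level. Ptges averaged 534 ± 221 RPKM in controls (362 to 853) and 454 ± 115 under water load (lowest 330; SD, n = 4 each), with overlapping groups and a difference of -0.19 ± 0.31 on the log2 scale (exact permutation p = 0.600). Ptger1 was 32.2, 13.5, 43.1 and 37.8 RPKM in controls and 19.9, 18.4, 12.8 and 25.2 under water load, lower by 0.63 ± 0.39 with overlapping groups (exact permutation p = 0.171). Ptger4 was low in both groups, 2.07 ± 1.85 against 0.765 ± 0.551 RPKM (exact permutation p = 0.171). Ptger3 (6.67 ± 3.51 against 6.76 ± 2.34 RPKM) and Ptgds (27.2 ± 24.6 against 39.1 ± 21.0) gave exact permutation p = 0.857 and 0.457. Ptgs2 was listed at 0 in all 4 water-loaded libraries and reached 0.456 RPKM in 1 control, Hpgd stayed under 0.02 RPKM and Ptger2 was listed at 0 in all 8. Rats with the same number deviated together, and within these 4 pairs Ptgs1 and Ptgds were higher under water load in 4, Ptger4 lower in 4, Ptges and Ptger1 lower in 3, and Ptger3 higher in 2. Of all genes tested, 18.7% went 1 way in every pair. The permutation tests above take no account of the pairs; in the fit with the pair as a block the adjusted p was 0.409 for Ptgs1, 0.435 for Ptgds and 0.575 for Ptger4 (limma). A miss of the threshold does not show equal levels, and all 8 rats received ddAVP.

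**Figure D4:**
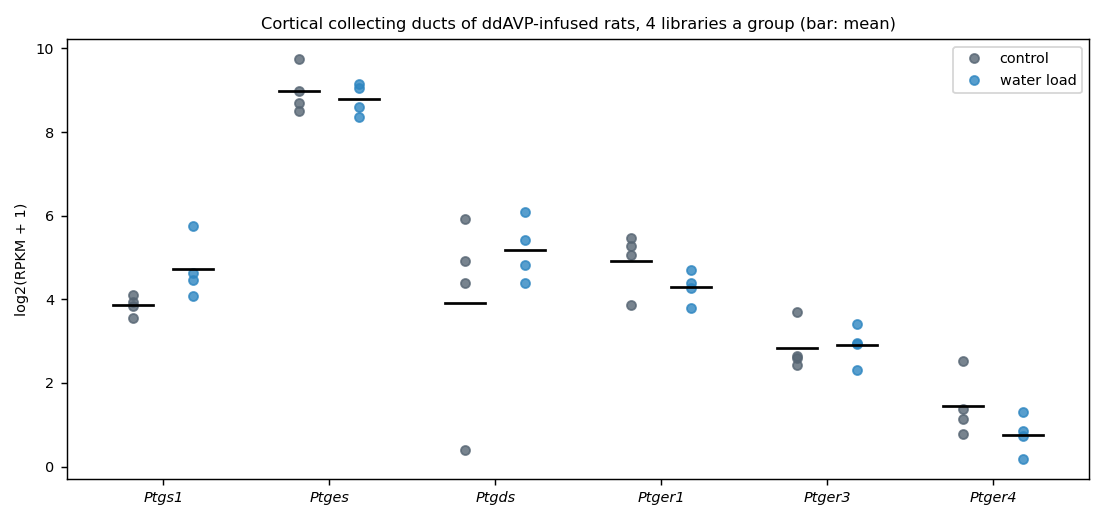
The 6 tested members in the CCDs of control (grey) and water-loaded (blue) rats, 4 libraries a group, as log2(RPKM + 1), with bars at the group means. Ptgs1 lies higher in 3 of 4 water-loaded libraries than in any control, and the groups overlap for each of the 6 genes.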

How the data were processed

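Values in RPKM were made by the authors and used as deposited; per the submitters' processing notes the build rn5 and the tools HOMER, SAMtools, STAR 2.3.0-r192 and Trimmomatic 0.32 were used, and no counts were given. For symbols with more than 1 transcript the one with the highest mean was kept. Of 125 samples, 118 libraries were used; 7 whole-kidney PA-seq samples were not analysed here. Segments, glomeruli (110 libraries in the fit) and water load (8) were compared on log2(RPKM + 1) with limma 3.58.1 in R 4.3.3 (trended, Benjamini-Hochberg over all genes of a contrast), keeping genes at 1 RPKM or more in at least 4 libraries. A call needed an adjusted p under 0.05 and a log2 difference of at least 1, except for water load, where no minimum was set. The second table's glomerulus columns did not match and were not used. In the water-load groups rats with the same number deviated together (r from 0.209 to 0.313 in 4 pairs), and the blocked fit changed no member's call. Named were the 9 members, the 3 genes most like each over 15 groups (mean of at least 1 RPKM in a group) and up to 4 per pathway list with the highest segment mean; some genes that fall under this rule are not reported here. The members and lists were chosen with earlier results of these data known. Depth per library is known only as relative depth from the steps of the values; reads without molecular identifiers are not molecules. The fits were tested on simulated data with normal noise around 1 mean and 1 SD per gene. Changes were added to genes with a mean of at least 1 on the log2 scale. Of 100 genes changed by 4 on the log2 scale from OMCD to IMCD 66 were recovered, and of 100 changed by 2, 9. Under water load the fit recovered 49 of 100 changed by 2 and 0 of 100 changed by 1. False calls numbered 3 and 1. Many member values lie at 0 and their spread differs by segment, so these rates need not hold for them. Promoters are RefSeq sequences in GRCr8, and all 9 members matched by symbol. Alternatives were the second table, a pseudocount of 0.1, quantile normalization, all genes unfiltered, the number of detected genes as a covariate, shallow libraries left out, the replicate number as a block, pairs fitted alone, array weights and libraries left out in turn.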

Additional observations from a re-analysis of the deposited data

Results flagged for a closer look

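In groups of 4 to 10 libraries, 10 of 75 pairs of a member and a group held 1 library far from the others by Dixon's test at the 95% level. For normally distributed values chance gives this in about 1 of 20 groups. Several of these groups lay near 0 apart from 1 library, so that rate does not apply to them. No share over all genes was computed, and the count shows no excess for the members. Ptges stood apart in S2 library 4 at 12.4 RPKM (the others 0 to 0.657), in LDLOM library 1 at 232 RPKM (0 to 0.565) and, as the lowest, in CNT library 4 at 1.26 RPKM (126 to 570). Ptgds stood apart in S2 library 6 at 67.5 RPKM (0 to 0.0661) and in S3 library 5 at 547 RPKM (0 to 0.967). Ptger3 stood apart in S2 library 7 at 10.5 RPKM (0 to 1.63), LDLIM library 3 at 9.18 RPKM (0 to 0.0774), OMCD library 5 at 6.80 RPKM (0.00235 to 0.150) and control CCD library 4 at 11.9 RPKM (4.43 to 5.29). Ptger4 stood apart in tAL library 4 at 22.2 RPKM (0 to 0.0801).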

How the results depend on the processing

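Under the alternatives listed in the methods, 6 to 8 members varied over the segments, 7 to 15 neighbouring and 13 to 18 region tests were called, and 0 members were called under water load. The lowest neighbouring count of 7 came from fitting each pair of segments alone. With a pseudocount of 0.1, 1 member was selective for a segment in place of 2, since Ptgs1 in IMCD had 3.81 on the log2 scale and an adjusted p of 0.0564 (limma). In glomeruli 2 members were called after quantile normalization, and leaving out 1 glomerulus library gave 2 to 5, with 3 called without library 1 and 2 without library 3. Direction turned for Ptger3 from tAL to mTAL in the table without PA-seq (-0.0134) and for Ptgs1 in glomeruli after quantile normalization (-0.0628). Leaving out libraries of 10 segments in turn was added after seeing the data, as was leaving out tAL 1 and 2, DCT 2 and 6, or LDLOM 1. Of 38 calls on single members, 18 stood under every alternative in which they could be tested. The 18 include the Ptgs2 calls in the thick limb and cTAL, which had no test in the table without PA-seq. They also include the glomerular Ptger4 call, which was not run on that table. The replicate number as a block changed the count of genes called under water load from 13 to 29 and no member's call. In the segments most libraries of the same number did not deviate together, but some did (correlations of -0.199 to 0.724). From cTAL to DCT all 7 correlations were positive, from 0.0428 to 0.625. In the segments 8 members varied with the block and 7 without. Depth limits the low values: 1 step was 0.00632 RPKM for Ptgs2 at the median.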
